A study of Homo sapiens with 32 samples.

Results

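The subunit genes of oxidative phosphorylation were followed in MDA-MB-468, an established line of human breast cancer cells of the triple-negative kind. Members were protein-coding genes of the count table whose symbols start with NDUFA, NDUFB, NDUFC, NDUFS, NDUFV (complex I), UQCR (complex III), COX4 to COX8 (complex IV), ATP5F1, ATP5M or ATP5P (complex V), together with CYC1 and the genes of complex II, SDHA, SDHB, SDHC and SDHD. NDUFAF genes and pseudogenes were left out. The rule found 90 nuclear genes among the 48804 genes listed. The table lists 0 genes of the mitochondrial genome, so the subunits that this genome encodes were not analysed here and the nuclear and mitochondrial genomes were not compared. By complex, 40 members belong to complex I, 4 to complex II, 10 to complex III, 17 to complex IV and 19 to complex V.

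Cells received PBS (control), salinomycin at 0.5 μM (Sal), dasatinib at 15 μM (Das) or the combination of the same doses (S + D, 15.5 μM in total). RNA was taken after 24 h or 72 h, which gives 8 conditions with 4 libraries each and 32 libraries in all. Salinomycin is a polyether ionophore and dasatinib an inhibitor of Src-family and ABL kinases. The cells were 1 line grown in culture, and in each condition 3 libraries carry a replicate number and 1 carries none.

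Complexes I to IV pass electrons from NADH and succinate to oxygen in the inner mitochondrial membrane, and complexes I, III and IV pump protons while they do so. Complex V, the ATP synthase, lets the protons flow back through a ring of c subunits and makes ATP from this flow. Most subunits are encoded in the nucleus, made in the cytosol and imported, and a few of the catalytic core are encoded by mitochondrial DNA, so the complexes need both genomes. Several nuclear subunits exist as tissue isoforms from separate genes.

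Library totals ranged from 25692561 to 42769687 counts with a median of 33301486, and levels are CPM, the counts of a gene divided by the library total and scaled to a common size with TMM factors. The epithelial marker EPCAM was between 207.8 and 388 CPM, and EGFR, known to be abundant in this line, between 2746 and 5930 CPM. ESR1, the estrogen receptor, was between 3.66 and 12.0 CPM, and the fibroblast marker COL1A1 between 18.0 and 118 CPM. Of 9 marker genes tested at 72 h, 1 rose and 3 fell with Sal, 0 rose and 2 fell with Das, and 2 rose and 4 fell with S + D. KRT8 fell by 1.73 with Sal and COL1A1 rose by 1.22, KRT19 fell by 1.01 with Das and by 2.31 with S + D, and PDGFRB, at no more than 2.18 CPM in a library, rose by 2.41 with S + D, all on the log2 scale. Their part in the results was not tested. The hematopoietic marker PTPRC had at most 5 counts in a library, COL1A2 at most 1, and PGR at most 3. A member was called when its p from the quasi-likelihood test of edgeR, adjusted over all genes tested by Benjamini-Hochberg, was under 0.01, and all fold changes are on the log2 scale.

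The libraries differed in a feature that the groups do not account for. Members have short transcripts. The 78 at 1 CPM or more had a median of 783 bases for the canonical transcript against 3368 bases for all such protein-coding genes, and 59.0% of members against 5.25% of these genes are under 1000 bases. In the 8 unnumbered libraries, the median member stood 0.13 to 0.56 above the numbered libraries of its condition, and the 591 other short genes stood 0.14 to 0.51 above them. The 11457 longer genes had medians between -0.03 and 0.01 in the same libraries. Replicate 1 of S + D at 72 h stood apart in the same way, at 0.53 for members and 0.44 for other short genes. Whether this feature causes any result was not tested, and the main counts are therefore given with and without these libraries.

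**Figure D1:**
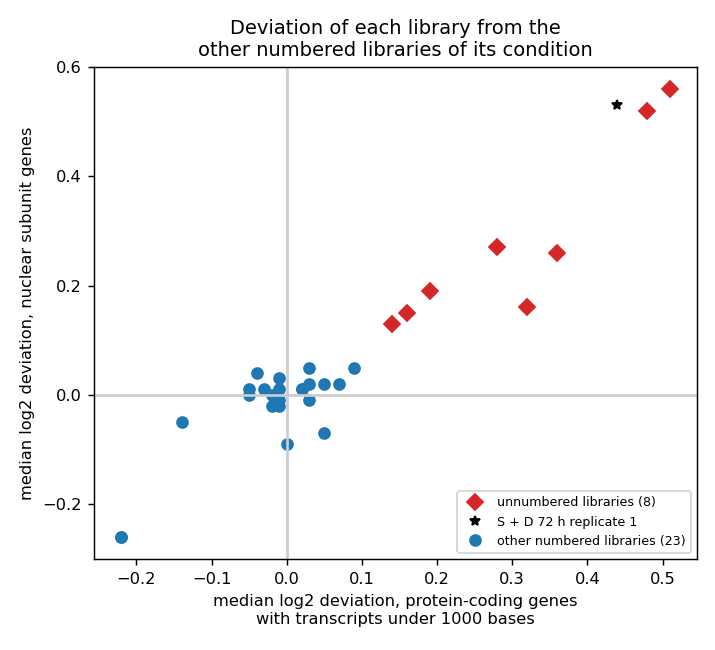
Each point is 1 of the 32 libraries. The x axis is the median log2 deviation of protein-coding genes with transcripts under 1000 bases and the y axis that of the nuclear subunit genes, both from the mean of the other numbered libraries of the same condition. The 8 unnumbered libraries (diamonds) and replicate 1 of S + D at 72 h (star) lie above 0 on both axes, up to 0.56 on the y axis.

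Promoter windows are shown for 4 genes that the results turn on: ATP5MC1, COX7A2L and NDUFV3, which were higher with Sal at 72 h, and COX6B1, which was lower. Each window runs from 250 bases before to 50 bases after the RefSeq start and is written in the direction of transcription, from GRCh38.p14. Capitals mark CCAAT on either strand, the letters of the CCAAT box. The other motifs searched, the palindromic NRF1 motif, CCGGAAGT (named for ETS factors) and ATGGCGGC (named for YY1), have no match in these 4 windows.
ATP5MC1, chr17:48892537-48892836, plus strand: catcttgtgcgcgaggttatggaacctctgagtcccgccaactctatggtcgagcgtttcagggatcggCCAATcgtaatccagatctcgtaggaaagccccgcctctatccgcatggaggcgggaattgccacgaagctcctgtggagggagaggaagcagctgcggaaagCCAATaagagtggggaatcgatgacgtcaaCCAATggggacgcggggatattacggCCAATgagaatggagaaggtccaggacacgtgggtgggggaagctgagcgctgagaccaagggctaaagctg
COX7A2L, chr2:42361168-42361467, minus strand, the first of the starts listed: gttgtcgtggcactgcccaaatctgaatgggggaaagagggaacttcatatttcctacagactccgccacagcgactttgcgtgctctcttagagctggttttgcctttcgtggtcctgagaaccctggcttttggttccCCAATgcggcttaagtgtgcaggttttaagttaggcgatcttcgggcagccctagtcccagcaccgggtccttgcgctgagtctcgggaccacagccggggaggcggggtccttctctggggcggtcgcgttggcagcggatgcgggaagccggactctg
NDUFV3, chr21:42893059-42893358, plus strand: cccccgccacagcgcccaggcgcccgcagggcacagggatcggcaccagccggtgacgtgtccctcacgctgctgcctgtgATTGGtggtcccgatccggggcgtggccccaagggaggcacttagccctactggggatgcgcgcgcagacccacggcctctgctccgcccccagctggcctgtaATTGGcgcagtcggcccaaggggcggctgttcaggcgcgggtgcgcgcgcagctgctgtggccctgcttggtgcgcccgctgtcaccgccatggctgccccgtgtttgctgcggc
COX6B1, chr19:35648073-35648372, plus strand: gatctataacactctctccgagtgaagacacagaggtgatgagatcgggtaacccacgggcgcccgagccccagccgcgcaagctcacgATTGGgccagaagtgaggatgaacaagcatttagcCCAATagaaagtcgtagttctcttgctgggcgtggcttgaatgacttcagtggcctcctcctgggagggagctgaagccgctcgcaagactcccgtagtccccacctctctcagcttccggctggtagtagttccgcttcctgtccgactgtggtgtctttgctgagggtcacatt
The window of ATP5MC1 holds 4 matches to CCAAT, the first bases of which lie 181, 78, 48 and 22 bases before the start, and 289 of the 27305 promoters with a window (1.06%) hold at least 4. Of the 90 members, 70 had a window. The NRF1 motif was found in 17 of these 70 (24.3%) against 6.28% of all promoters, CCGGAAGT in 10 (14.3%) against 4.44%, ATGGCGGC in 12 (17.1%) against 3.21%, and CCAAT in 24 (34.3%) against 35.7%. Among the members with a window that were called higher with Sal at 72 h, 7 of 13 held CCAAT and 1 held the NRF1 motif. These matches are descriptions of the letters and were not tested.

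Of the 90 members, 81 passed the filter on low counts at both times: 39 of complex I, all 4 of complex II and 10 of complex III, 11 of complex IV and 17 of complex V. The other 9 are mostly tissue isoforms. COX4I2 (a lung form), COX7A1 (a heart and muscle form) and the read-through gene NDUFC2-KCTD14 had 0 counts in all 32 libraries. The highest count in any library was 4 for the muscle form COX6A2 and for ATP5MGL, 15 for the testis form COX6B2, 1 for COX7B2, 6 for COX8C and 11 for the read-through ATP5MF-PTCD1. The common isoforms COX4I1, COX6A1, COX6B1, COX7A2, COX7B and COX8A all passed. Per kilobase of canonical transcript, the control at 72 h held 720.6 CPM of NDUFS5, 459.5 of COX4I1 and 1.14 of NDUFA9. Some members share exons with other genes, and reads on shared bases cannot be assigned here. NDUFA7 shares 32.5% of its exon bases, NDUFV2 28.4%, NDUFB8 48.5% and ATP5ME 61.3%.

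The sum of the 90 genes describes the size of the whole group. In the numbered libraries at 24 h it was 8433, 8531 and 8390 CPM in the control, and 8245, 7763 and 8381 after Sal. It was 7844, 7647 and 7668 after Das and 7396, 7427 and 7316 in the S + D group. The numbered libraries of Das and of S + D lay below all numbered controls. The unnumbered libraries gave 9510, 11680, 10950 and 8988 CPM in the same order, each the highest of its condition.

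At 72 h the numbered libraries held 8351, 8400 and 8007 CPM in the control, and 8900, 8923 and 8851 after Sal. They held 8009, 8029 and 7850 after Das and 12140, 8711 and 8800 in the S + D group. The unnumbered libraries gave 9086, 10660, 8887 and 10290 CPM. Replicate 1 of S + D was the highest of all 32 libraries, and the other numbered libraries of S + D lay just below the numbered libraries of Sal and above the numbered controls. In these bulk samples, fewer cells of a kind and less RNA per cell cannot be told apart.

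**Figure D2:**
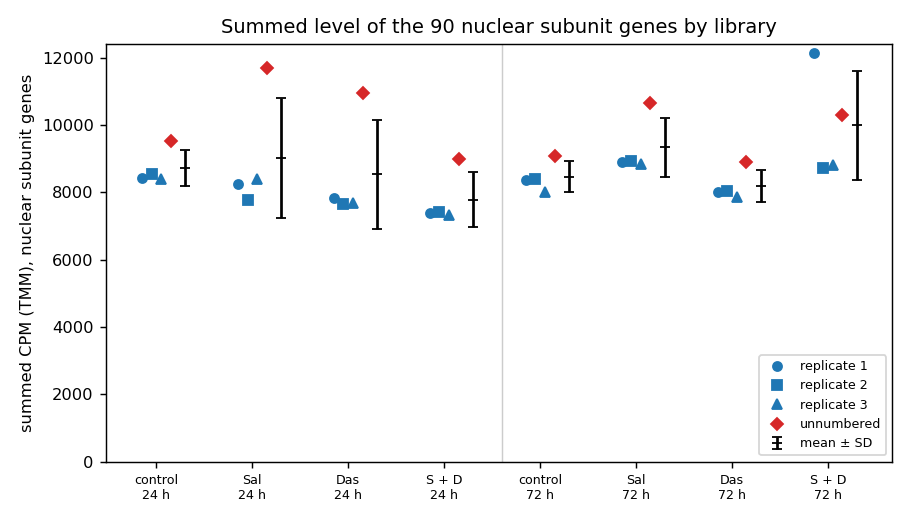
Summed CPM of the 90 nuclear subunit genes (y axis, from 0) in each library, by condition (x axis). Circles, squares and triangles are replicates 1, 2 and 3, red diamonds the unnumbered libraries, and bars the mean ± SD of 4 libraries. The unnumbered libraries are the highest of their condition except with S + D at 72 h, where replicate 1 reached 12140 CPM.

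At 24 h, few members were called after a single drug. Sal raised 3 of 81 members (COX7A2L, NDUFV3 and NDUFS1) and lowered 0, where 4.55% of all 16357 genes tested were higher and 2.23% lower. With any 1 control library left out, 0 members were called higher with Sal. Over all genes, 471 to 570 of 16559 to 16599 were higher in those fits. Das raised 1 (COX7A2L) and lowered 0, where 6.99% of all genes were higher and 6.88% lower. An unadjusted p under 0.05 was found for 5 members with Sal and 8 with Das. DESeq2 called 3 and 2 members higher and 0 lower, where 1129 and 1516 of all genes were higher and 894 and 1632 lower. Without the unnumbered libraries, 3 members were higher and 4 lower with Sal, and 4 higher and 16 lower with Das, beside 10.9% and 18.7% of all genes lower. With the replicate number as a block, Das gave 2 higher and 1 lower, where 13.4% of all genes were higher and 14% lower.

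With S + D at 24 h, 4 members rose and 9 fell, where 17.1% of all genes were higher and 16.5% lower, so the share of members that fell (11.1%) lay below the background. The fallen members belong to complexes I, II, III and V. The median over the 81 members was -0.15, against 0.04 for all genes. The count of fallen members depended on the unnumbered libraries: without them 38 of 81 (46.9%) were lower and 7 higher, where 29.4% of all genes were lower and 28.6% higher. The block for the replicate number gave 21 lower (25.9%) and 6 higher, where 24.5% of all genes were lower.

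Among the fallen members, UQCRC1, a core protein of complex III (GRCh37 chr3:48636435-48648409), stood at 204.6, 218.1, 220.1 and 242.4 CPM in the 4 control libraries and at 115.3, 121.8, 112.8 and 177.2 CPM with S + D. The groups did not overlap, and the fold change was -0.73 (SE 0.169, adjusted p = 0.00228). SDHA, the flavoprotein of complex II that oxidises succinate (chr5:218418-257197), was at 254.8, 259.5, 260.1 and 226.1 CPM in the control and 176.3, 184.1, 179.1 and 201.4 CPM with S + D, again without overlap. It fell by 0.41 on the log2 scale (SE 0.0763, adjusted p = 0.000352).

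In complex I, 4 of the 39 tested members fell at 24 h with S + D, where 16.5% of all genes were lower. Among them NDUFS6, an accessory subunit, was at 136.3 to 160.7 CPM in the control libraries and 97.36 to 113 CPM with S + D, without overlap. Its fold change was -0.53, and those of the accessory subunits NDUFB4 and NDUFS5 were -0.37 and -0.38. In complex V, the c-subunit gene ATP5MC3 (-0.44) and the membrane subunit gene ATP5MG (-0.29) fell, and in complex III the Rieske protein UQCRFS1 (-0.33) did so beside UQCRC1.

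The members that rose with S + D at 24 h were COX7A2L, NDUFV3, UQCRC2 and NDUFA4L2. UQCRC2, the other core protein of complex III and the partner of UQCRC1, rose by 0.35 (SE 0.0877, adjusted p = 0.00403) while UQCRC1 fell. It kept its call in 2 of 8 fits that each left out 1 library, with adjusted p up to 0.0177. NDUFA4L2 encodes a paralog of NDUFA4 known as a target of hypoxia-inducible factors. Its libraries held 0.869, 0.74, 1.22 and 1.84 CPM in the control, 2.98, 2.44, 2.82 and 3.04 CPM with Das and 2, 2.81, 2.79 and 3.19 CPM with S + D at 24 h. Das and S + D lay above the control in every library, at 24 to 128 counts for the gene at this time, with fold changes of 1.27 (adjusted p = 0.0106, not called) and 1.22 (adjusted p = 0.00675).

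**Figure D3:**
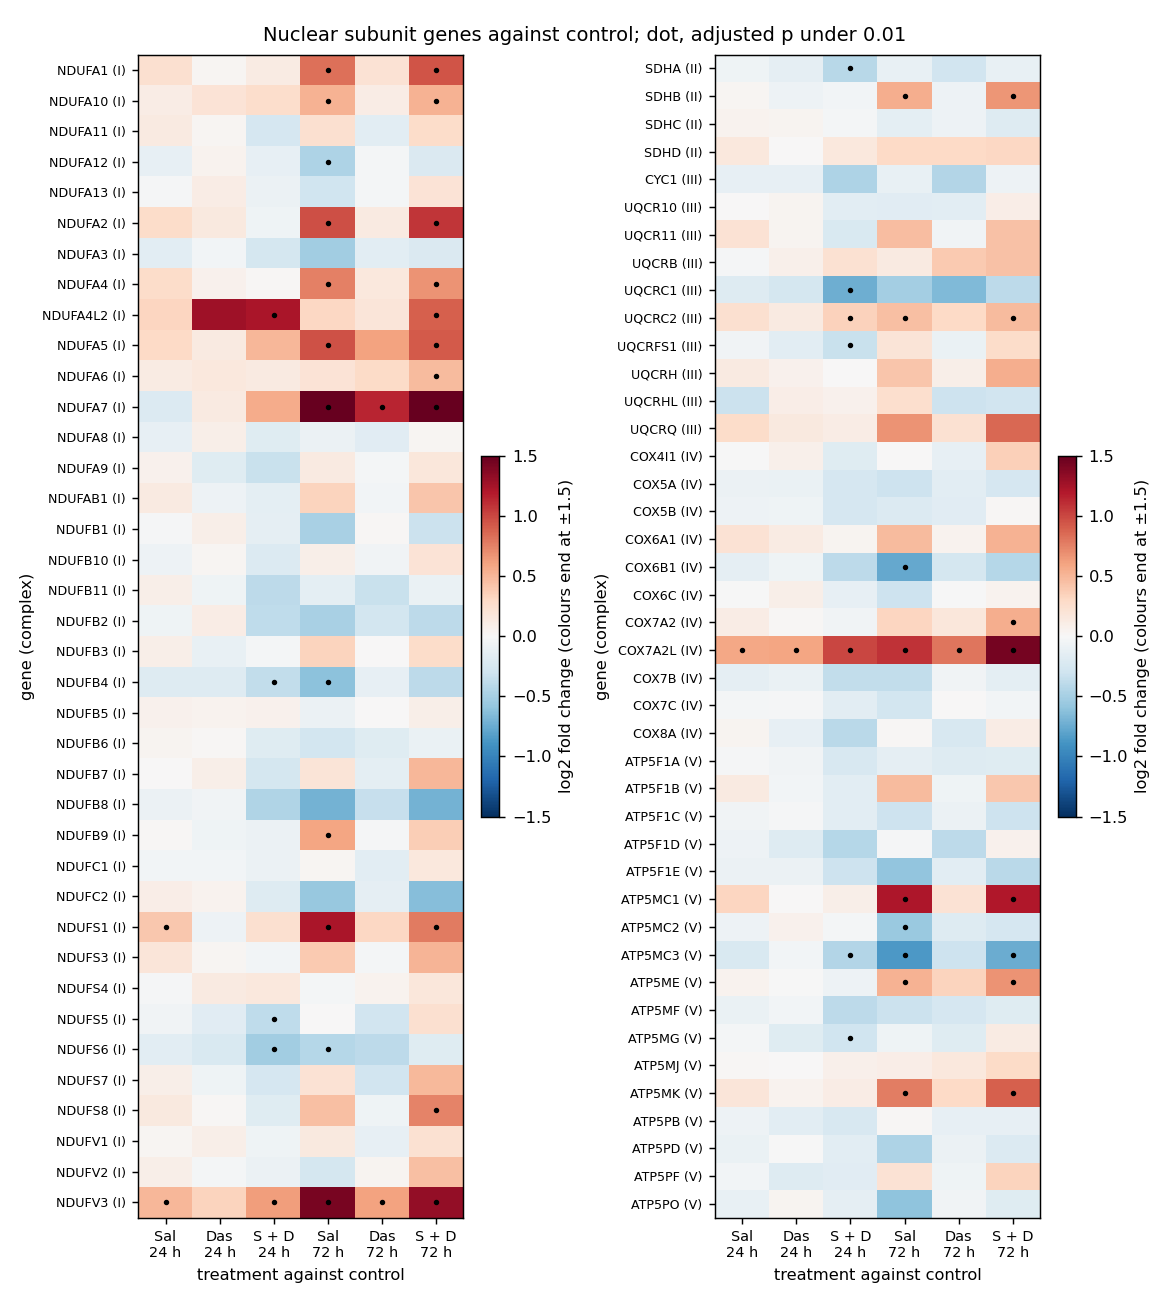
Log2 fold change (colour, red higher and blue lower than control) of tested nuclear subunit genes (y axis, with the complex in brackets) for each treatment and time (x axis), with a dot at an adjusted p under 0.01 in edgeR's quasi-likelihood test. COX7A2L has a dot in all 6 columns, and in complex V ATP5MC1 is red and ATP5MC3 blue with Sal and with S + D at 72 h.

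At 72 h, Sal raised 15 members and lowered 6 of 81, where 26.3% of all 16682 genes tested were higher and 26.8% lower. The share of members that rose (18.5%) and the share that fell (7.41%) both lay below the background, and the median over members was 0.02. By complex, 9 of 39 tested members of complex I rose and 3 fell, 1 of 4 rose in complex II, 1 of 10 in complex III, 1 rose and 1 fell of 11 in complex IV, and 3 rose and 2 fell of 17 in complex V. Without the unnumbered libraries 16 members (19.8%) rose and 15 (18.5%) fell, where 27.8% of all genes were higher and 29.6% lower. Leaving out only the unnumbered library of Sal gave 14 members lower, where 4554 of all 16862 genes were lower.

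Das at 72 h raised 3 members (NDUFA7, COX7A2L and NDUFV3) and lowered 0, where 10.5% of all genes were higher and 9.36% lower. Of the 81 members, 15 had an unadjusted p under 0.05. DESeq2 called 3 members higher and 2 lower, where 2198 and 2079 of all 16682 genes were. Between 1 and 5 members were higher when 1 library was left out, with 1 when replicate 3 of the control was left out and 5 when the unnumbered library of Das was. Over all genes, 1157 of 16885 and 1757 of 16852 were higher in those fits, in the same order.

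S + D at 72 h raised 18 members and lowered 1, where 27% of all genes were higher and 27.9% lower. The median over members was 0.20, against 0.01 over all genes. Without the unnumbered libraries the split was as one-sided, with 25 members higher, 1 lower and a median of 0.18, where 28.4% of all genes were higher and 29.5% lower. Without replicate 1 of S + D as well, an alternative chosen after the data were seen, 20 members were higher and 17 lower, and the median was 0.01. In that fit 27.7% of all genes were higher and 29.1% lower. Leaving out replicate 1 of S + D alone gave 6 members lower, where 4492 of all 16951 genes were lower.

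Of the 15 members called higher with Sal at 72 h and the 18 called higher with S + D, 14 were shared (93.3% and 77.8%), and both comparisons use the same 4 controls. The shared ones are NDUFA1, NDUFA2, NDUFA4, NDUFA5, NDUFA7, NDUFA10, NDUFS1 and NDUFV3 of the NDUF group, SDHB, UQCRC2, COX7A2L, ATP5MC1, ATP5ME and ATP5MK. ATP5MC3 was lower in both. In direct comparison, S + D differed from Sal in 0 members in either direction (1.42% of all genes higher and 1.59% lower), with 11 members at an unadjusted p under 0.05 and 1 lower by DESeq2. Against Das, S + D raised 13 members and lowered 0, where 14.3% of all genes were higher and 17.7% lower. DESeq2 called 17 higher and 0 lower, where 2983 and 3256 of all 16682 genes were, and 35 members had an unadjusted p under 0.05. Without the unnumbered libraries and replicate 1 of S + D the counts were 15 higher and 5 lower. In that fit 14.6% of all genes were higher and 17.8% lower.

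In complex I, NDUFS1, the large iron-sulfur subunit in the NADH dehydrogenase module (chr2:206979541-207024233), rose with Sal and with S + D. The control libraries at 72 h held 148.8, 143.1, 135 and 148.4 CPM, Sal 332.1, 343.1, 353.6 and 323.4, Das 214.7, 208.2, 154.1 and 141, and S + D 244.8, 253.9, 264.6 and 225.7 CPM. Sal and S + D lay above every control and did not overlap with each other, and Das overlapped with the control. The direct test of S + D against Sal called 0 of 81 members in the main fit. The fold changes were 1.22 with Sal (SE 0.123, adjusted p = 2.78e-07), 0.31 with Das (adjusted p = 0.0596) and 0.78 with S + D (SE 0.122, adjusted p = 2.73e-05).

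NDUFS1 was also the member called in the interaction of Sal and Das at 72 h, where 0 stands for a response to S + D equal to the sum of the single responses on the log2 scale. The interaction term was -0.75 (SE 0.172, adjusted p = 0.00679), which is 1 of 81 members where 7.52% of all genes were called. It was called in 7 of 7 other settings but in 3 of 16 fits that each left out 1 library, with adjusted p up to 0.0209. At 24 h the interaction was called for 0 members (0.0306% of all genes) by edgeR and by DESeq2, with 0 members at an unadjusted p under 0.05.

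NDUFV3, an accessory subunit of the NADH dehydrogenase module (chr21:44299754-44333414), was at 53.54, 54.35, 51.56 and 46.57 CPM in the 72 h control, 137.3, 155.1, 146.7 and 117 with Sal, 99.19, 95.07, 60.31 and 60.8 with Das, while S + D gave 153.2, 125.9, 135.7 and 102.8. Every treated library lay above every control library. The fold changes were 1.42, 0.60 and 1.32 (SE 0.167, 0.165 and 0.167), with adjusted p = 1.29e-06, 0.0096 and 2.4e-06. In the Das group, replicate 3 and the unnumbered library lay apart from the other libraries, and the call for Das held in 2 of 8 fits that left out 1 library, with adjusted p up to 0.0463.

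Other members of complex I that rose with Sal and with S + D lie in several modules. NDUFA1, a small membrane-arm subunit, was at 123.8 to 152.1 CPM in the 72 h control, 217.4 to 266.3 with Sal and 212.3 to 359 with S + D. NDUFA5, an accessory subunit of the quinone module, was at 38.74 to 58.43, 75.97 to 110.7 and 69.94 to 120.9 CPM, and NDUFA2 at 23.77 to 45.63, 45.45 to 95.48 and 44.53 to 90.03 CPM. For NDUFA1 and NDUFA5 neither treated group overlapped with the control, and for NDUFA2 both overlapped with it only in the unnumbered control library.

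NDUFA4 is grouped with complex I by its symbol, while its protein is known to sit in complex IV. It was at 101.2, 94.41, 82.5 and 126 CPM in the control at 72 h, 124, 159.6, 167.5 and 238.3 with Sal, and 196.1, 129.5, 131.5 and 189.7 with S + D. Both treated groups had higher means, and Sal overlapped with the control in 1 library. Its log2 changes were 0.76 (SE 0.19, adjusted p = 0.00198) and 0.67 (SE 0.189, adjusted p = 0.0046). Its paralog NDUFA4L2 was called with S + D alone at 72 h, at 0.90 (SE 0.191, adjusted p = 0.000489), against 0.32 with Sal and 0.18 with Das.

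NDUFA7 had the largest fold changes of the group at 72 h, 1.61 after Sal, 1.15 after Das and 1.89 after S + D, at very low levels. Its counts at 72 h were 9 to 16 in the control, 26 to 50 after Sal, 19 to 39 after Das and 34 to 56 after S + D. Since 32.5% of its exon bases are shared with an overlapping gene model and with RPS28, which gene these reads came from is uncertain.

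The 3 members of complex I that fell with Sal at 72 h were NDUFB4 (-0.62, adjusted p = 0.000432), NDUFA12 (-0.47, adjusted p = 0.00832) and NDUFS6 (-0.43, adjusted p = 0.00894), all accessory subunits. NDUFB4 kept its call in 8 of 8 fits that each left out 1 library, NDUFS6 in 2 of 8 and NDUFA12 in 1 of 8, with adjusted p up to 0.0407 for NDUFS6 and 0.0484 for NDUFA12. With S + D at the same time, 11 of 39 tested members of complex I rose and 0 fell. Over all genes, 27% were higher and 27.9% lower. NDUFS8, an iron-sulfur subunit, was among those of complex I that rose (0.74, SE 0.152). Over all complexes, 1 of 81 members fell with S + D. In the fit without the unnumbered libraries and replicate 1 of S + D, 17 fell, where 29.1% of all genes were lower.

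In complex II, SDHB, its iron-sulfur subunit (chr1:17345159-17380527), changed apart from the other subunits. It was at 87.5, 88.43, 83.11 and 78.05 CPM in the control at 72 h, 130.1, 123.8, 127.6 and 115.6 with Sal, 84.77, 83.11, 77.48 and 77.03 with Das, while S + D gave 169.9, 124.7, 124.6 and 114.3. Sal and S + D lay above all controls, and Das overlapped with the controls. SDHB had fold changes of 0.55 (SE 0.112, adjusted p = 0.000353) with Sal, -0.08 (adjusted p = 0.628) with Das and 0.66 (SE 0.112, adjusted p = 6.03e-05) with S + D.

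The other subunits of complex II were not called at 72 h. SDHA had fold changes of -0.11 with Sal and -0.11 with S + D, and the membrane anchor SDHD 0.30 and 0.31. The other anchor, SDHC, had -0.14 and -0.20, and it separated the libraries more than the conditions: the unnumbered libraries held 36.87 to 45.39 CPM and the numbered ones 16.61 to 23.09 CPM in all 8 conditions.

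In complex III, UQCRC2 (chr16:21964609-21994981) was at 167.9, 175.5, 164.5 and 153.6 CPM in the control at 72 h, 227.4, 246, 240.5 and 198.6 with Sal, 225.9, 230.7, 175.3 and 186.7 with Das, while S + D gave 251.7, 226.7, 224 and 219.6. Sal and S + D did not overlap with the control. UQCRC2 rose by 0.45 with Sal (adjusted p = 0.00136) and by 0.47 with S + D (adjusted p = 0.0009). Its partner UQCRC1 had fold changes of -0.51, -0.67 and -0.40 for Sal, Das and S + D, with adjusted p = 0.0318, 0.0154 and 0.0883. CYC1, cytochrome c1, had -0.11, -0.44 and -0.08, none of them called. UQCRH, a hinge protein of complex III, had 0.42 with Sal and 0.54 with S + D (adjusted p = 0.0434 and 0.0115), while its intronless paralog UQCRHL stayed at 9 to 27 counts in every library.

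In complex IV, COX7A2L encodes a COX7A-like protein that links complexes III and IV in supercomplexes (chr2:42560686-42652228). It was the one member called higher with all 3 treatments at both times. At 24 h the libraries held 98.29, 93.89, 95.4 and 97.48 CPM in the control, 124.5, 128, 135.4 and 198.2 with Sal, 131.8, 135.7, 143.1 and 169.6 with Das, while S + D gave 185.7, 175.4, 186.8 and 216. No treated library reached down to the control. At 24 h the fold changes were 0.58, 0.60 and 1.01, with adjusted p = 0.00649, 0.00285 and 1.14e-05.

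At 72 h, COX7A2L was at 115.7, 122.9, 116.3 and 113.6 CPM in the control, 247.9, 259.8, 269.3 and 227.8 with Sal, 243.8, 228.6, 140.7 and 213.1 with Das, while S + D gave 392.3, 291.5, 303.8 and 282.8. Again every treated library lay above every control. S + D lay above every library of Sal and of Das, with replicate 1 the highest at 392.3 CPM. The direct test of S + D against Sal called 0 of 81 members, COX7A2L included. The fold changes were 1.09 (SE 0.146, adjusted p = 5.26e-06), 0.81 (SE 0.146, adjusted p = 0.000511) and 1.43 (SE 0.147, adjusted p = 2.76e-07). The calls at 72 h held in 8 of 8 fits that each left out 1 library, and those at 24 h in 4 of 8 for Sal, 6 of 8 for Das and 8 of 8 for S + D. Without the unnumbered libraries the fold changes at 24 h were 0.42 with Sal (adjusted p = 4.6e-06) and 0.53 with Das (adjusted p = 1.3e-07).

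COX6B1, a subunit on the intermembrane side of complex IV (chr19:36139225-36149684), was the one member of this complex that fell with Sal at 72 h. It was at 199, 200.4, 178.7 and 215.2 CPM in the control, 102.7, 118, 116.1 and 134.4 with Sal, and 184.7, 122.6, 127.2 and 157.1 with S + D. Sal did not overlap with the control, and S + D did so in replicate 1. COX6B1 had fold changes of -0.76 with Sal (SE 0.136, adjusted p = 0.000102), -0.26 with Das (adjusted p = 0.149) and -0.43 with S + D (adjusted p = 0.0102). Without the unnumbered libraries and replicate 1 of S + D, COX6B1 was called lower with S + D. COX7A2, the common isoform that is related to COX7A2L, was called with S + D at 72 h (0.54, adjusted p = 0.00404) and had 0.32 with Sal (adjusted p = 0.068), but its call was lost in the fit without replicate 1 of S + D (adjusted p = 0.0202).

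**Figure D4:**
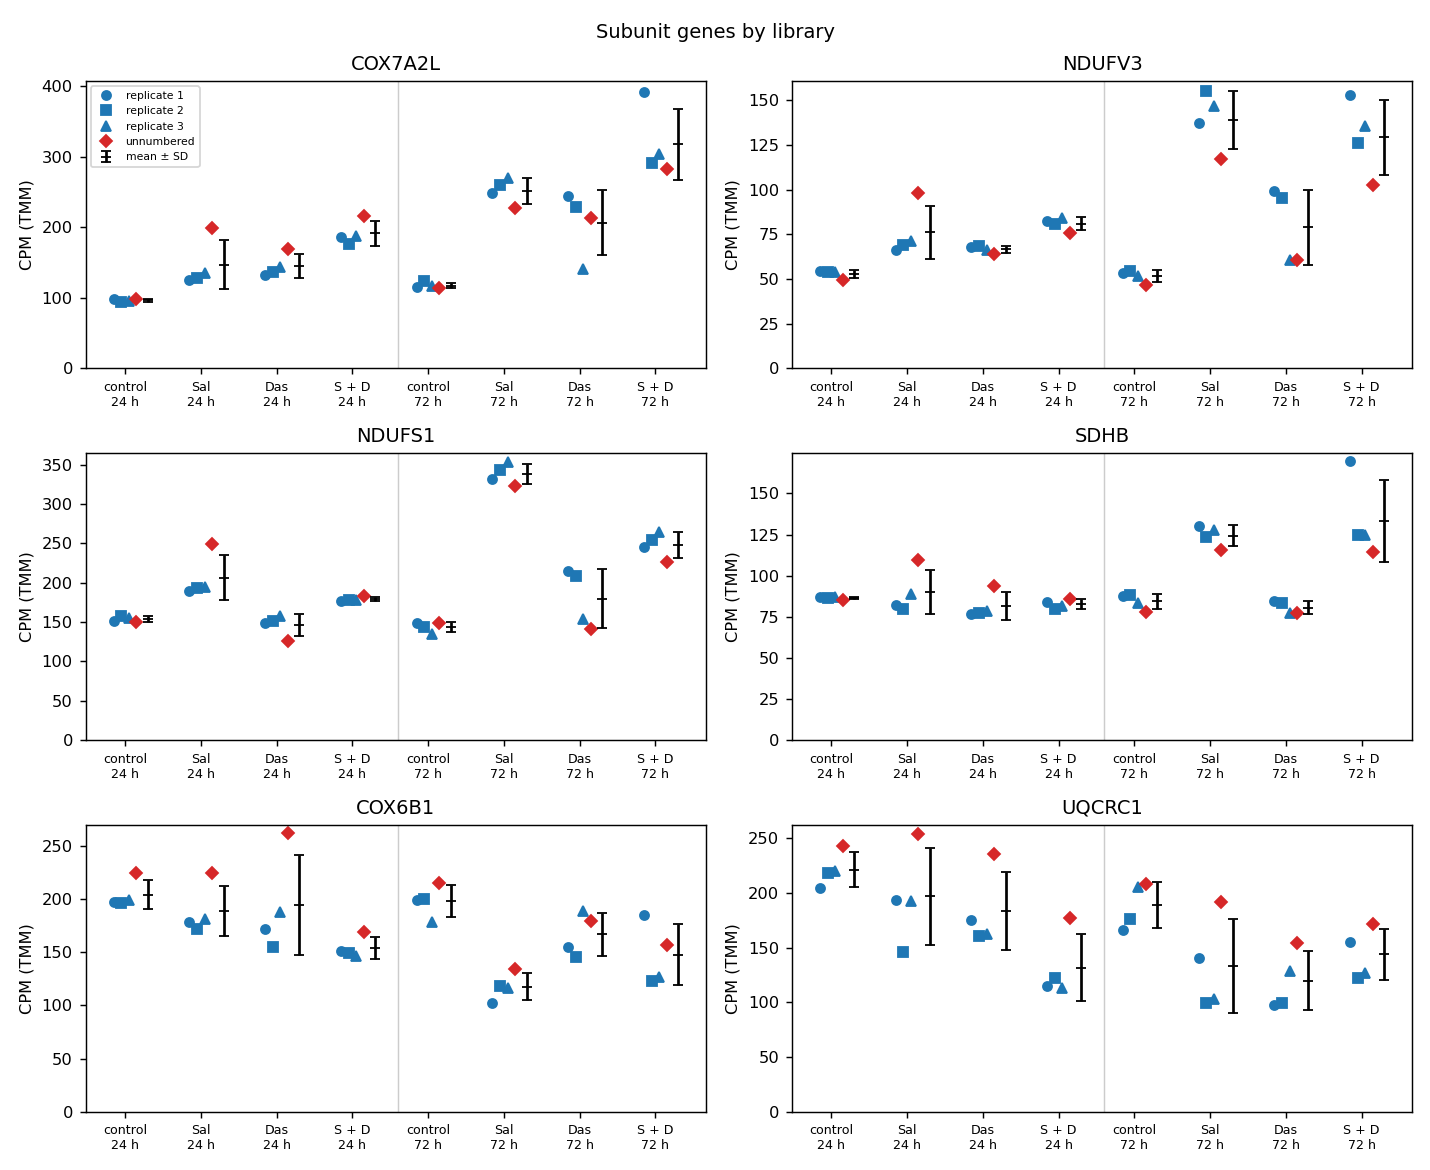
CPM (y axis, from 0) of 6 subunit genes in each of the 32 libraries, by condition (x axis), with symbols for the replicates, red diamonds for the unnumbered libraries and bars for the mean ± SD of 4 libraries. COX7A2L and NDUFV3 lie above their controls in every treated library at 72 h, NDUFS1 and SDHB with Sal and S + D, and COX6B1 lies below its controls in all 4 libraries of Sal at 72 h.

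In complex V, 3 genes encode the same mature c subunit, the proton-carrying part of the rotor ring, with different import sequences. They moved in opposite directions. ATP5MC1 (chr17:46970127-46973233) was at 51.96, 48.25, 46.95 and 50.59 CPM in the control at 72 h, 101.7, 113.2, 116.8 and 130.3 with Sal, 68.08, 60.28, 47.65 and 55.64 with Das, while S + D gave 141.4, 94.94, 108.3 and 110.5. Sal and S + D lay above every control library and every Das library. The fold changes were 1.21 with Sal (SE 0.133, adjusted p = 6.16e-07), 0.22 with Das (adjusted p = 0.215) and 1.20 with S + D (SE 0.133, adjusted p = 5.98e-07).

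ATP5MC3 (chr2:176040986-176046438) was at 200.6, 192.1, 170.7 and 211 CPM in the same control, 93.92, 104.3, 101 and 130 with Sal, 137.4, 139.4, 181.3 and 170.3 with Das, while S + D gave 134.5, 100.2, 99.17 and 129.9. Sal and S + D lay below every control. ATP5MC3 had fold changes of -0.86 (SE 0.14, adjusted p = 3.95e-05), -0.31 (adjusted p = 0.0897) and -0.74 (SE 0.14, adjusted p = 0.00016). ATP5MC2 (chr12:54026510-54071192) was at 104.5 to 110.3 CPM in the control, 69.06 to 81.53 with Sal and 79.68 to 109.4 with S + D, and fell with Sal by 0.56 (SE 0.118, adjusted p = 0.000526).

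The sum of the 3 genes was 350 ± 21.1 CPM (SD, n = 4) in the control at 72 h, 296 ± 32.02 with Sal and 320 ± 49.0 with S + D. Per kilobase of canonical transcript, ATP5MC1 made up 23.9% ± 0.61 (SD, n = 4) of the 3 genes in the control, 53.2% ± 1.47 after Sal, 30.0% ± 5.11 after Das and 48.4% ± 1.24 after S + D. ATP5MC2 went from 52.8% ± 1.29 in the control to 34.6% ± 1.57 with Sal, and ATP5MC3 from 23.3% ± 1.16 to 12.3% ± 0.63. At 24 h, the share of ATP5MC1 was 26.5% ± 1.19 in the control, 32.2% ± 5.17 with Sal and 29.6% ± 0.31 with S + D. The call of ATP5MC1 held in all 6 other settings with Sal and all 7 with S + D at 72 h.

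**Figure D5:**
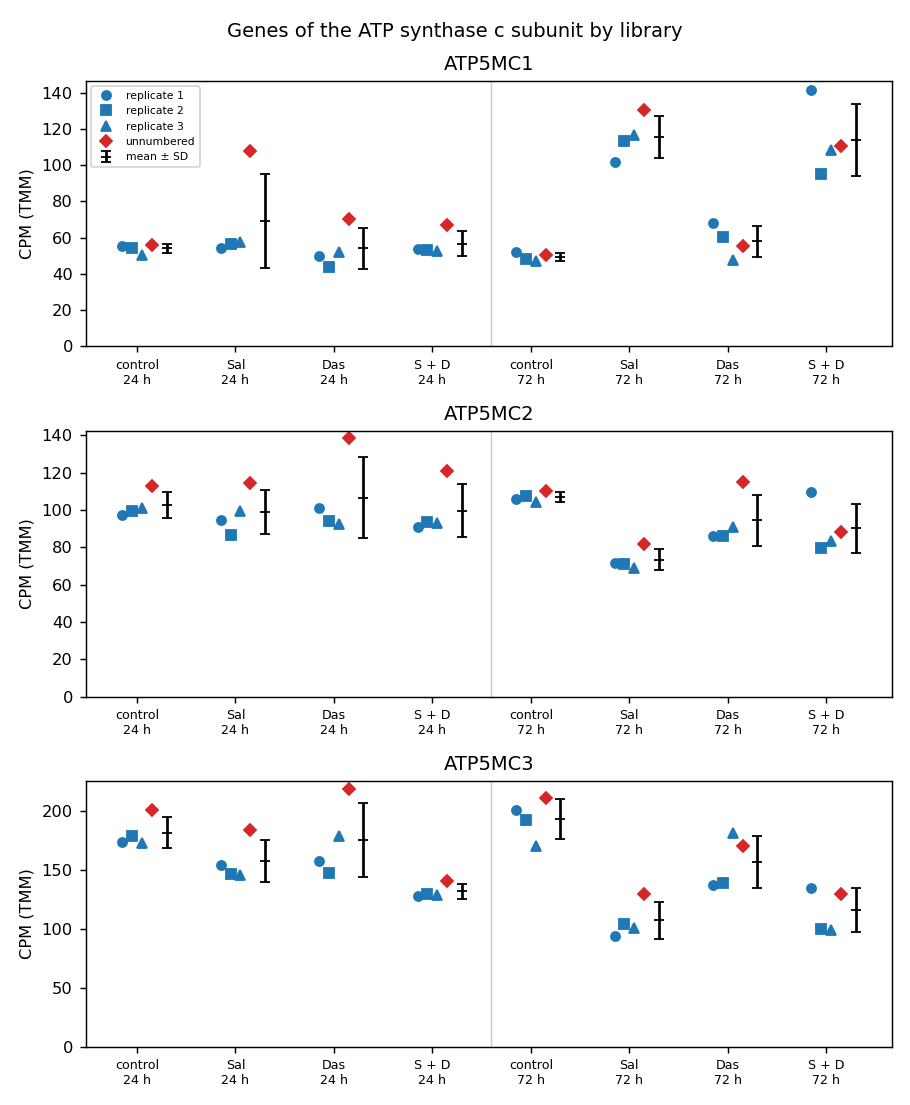
CPM (y axes, from 0) of ATP5MC1, ATP5MC2 and ATP5MC3 in each library by condition (x axis), with symbols for the replicates, red diamonds for the unnumbered libraries and bars for the mean ± SD of 4 libraries. At 72 h with Sal, ATP5MC1 reached 101.7 to 130.3 CPM against 46.95 to 51.96 in the control, while ATP5MC3 was at 93.92 to 130 against 170.7 to 211.

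Other members of complex V that rose with Sal and with S + D at 72 h were ATP5ME and ATP5MK, small membrane subunits of the ATP synthase, by 0.52 and 0.77 with Sal and by 0.67 and 0.90 with S + D. ATP5ME shares 61.3% of its exon bases with MYL5, and its call with Sal held in 3 of 8 fits that left out 1 library, with adjusted p up to 0.021. The ATP synthase subunit genes ATP5F1A and ATP5F1B were not called at 72 h with any treatment.

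The difference between the responses at 72 h and 24 h was tested over all 32 libraries. With Sal, 6 of 81 members had a higher response at 72 h (8.21% of all 17227 genes) and 1 a lower one (13.7%), and with S + D 9 had a higher one (6.15%) and 0 a lower one (10.1%). With Das the count was 0 in either direction (0.0522% and 0.174% of all genes), with 3 members at an unadjusted p under 0.05 and 0 by DESeq2. The control itself differed between the times in 0 members (2% of all genes higher and 0.76% lower), with 2 at an unadjusted p under 0.05 and 1 by DESeq2.

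ATP5MC1 and SDHB changed more at 72 h than at 24 h with both treatments, by 0.89 and 0.52 with Sal and by 1.17 and 0.75 with S + D on the log2 scale. UQCRFS1, which fell with S + D at 24 h, had a difference of 0.65 (SE 0.138, adjusted p = 0.000789) between the times. ATP5MC3 was the member with a lower response to Sal at 72 h than at 24 h (-0.63, adjusted p = 0.00885), a call that held in 5 of 16 fits that each left out 1 library, with adjusted p up to 0.023. Leaving out the unnumbered libraries raised the counts to 14 higher (17.3%) and 5 lower with Sal, where 16.9% of all genes were higher and 22.4% lower. With S + D it gave 29 higher (35.8%) and 0 lower, where 13.7% of all genes were higher and 17.9% lower. Leaving out replicate 1 of S + D at 72 h as well gave 23 higher and 3 lower with S + D, where 13% of all genes were higher and 18.4% lower.

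Other nuclear genes of the respiratory system are read against the same background at 72 h, 26.3% of all genes higher and 26.8% lower with Sal and 27% and 27.9% with S + D. Of 43 assembly factors tested, 11 rose and 7 fell with Sal and 14 rose and 8 fell with S + D, which is 25.6% and 32.6% higher and 16.3% and 18.6% lower. COX14, an assembly factor of complex IV, rose by 1.36 and 1.47, and SDHAF4, an assembly factor of complex II, fell by 1.25 and 0.99 on the log2 scale. Of 75 proteins of the mitochondrial ribosome, 10 rose and 13 fell with Sal and 12 rose and 12 fell with S + D, with MRPL55 at 2.47 and 2.49. At 24 h with S + D, 2 of these 75 rose and 15 (20%) fell, where 16.5% of all genes were lower, and without the unnumbered libraries 9 rose and 37 (49.3%) fell, where 29.4% were lower. The 17 genes of the citric acid cycle include the members SDHA, SDHB, SDHC and SDHD and are not a separate group. At that time 0 of them rose and 5 fell, SDHA among them, and without the unnumbered libraries 0 rose and 10 fell.

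Among 15 genes for transcription and replication of mitochondrial DNA, 3 rose and 5 fell with Sal and 3 rose and 3 fell with S + D at 72 h. TFAM, which packages mitochondrial DNA and activates its transcription, stood at 103.4 ± 7.89 CPM (SD, n = 4) in the control, 45.1 ± 3.35 after Sal, 77.6 ± 21.3 after Das and 40.5 ± 1.17 after S + D. Its fold changes were -1.21 with Sal (SE 0.143, adjusted p = 1.43e-06) and -1.36 with S + D (SE 0.144, adjusted p = 3.73e-07). POLRMT, the mitochondrial RNA polymerase, rose by 0.84 and 0.93 (adjusted p = 0.00104 and 0.000394).

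For 17 genes that process, stabilise or degrade mitochondrial RNA, 5 rose and 4 fell with Sal and 5 rose and 3 fell with S + D at 72 h. LRPPRC, which stabilises mitochondrial mRNA, had 0.28 with Sal (adjusted p = 0.0496) and 0.15 with S + D (adjusted p = 0.285). REXO2, an exonuclease for short RNA, rose by 1.66 with each, and PRORP, the nuclease of mitochondrial RNase P, fell by 1.57 and 1.70 on the log2 scale. PRORP was at very low levels, at most 55 counts in a control library, 17 with Sal and 16 with S + D at 72 h. Its groups overlapped: the lowest control held 0.456 CPM, the highest Sal library 0.600 and the highest S + D library 0.505. Among 17 genes of the citric acid cycle, 4 rose and 2 fell with Sal and 3 rose and 2 fell with S + D. The member SDHB was among those that rose with each. CS, citrate synthase, fell by 0.80 and 0.92 on the log2 scale.

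Of 9 tested regulators of respiratory genes, 1 rose and 2 fell with each of Sal and S + D at 72 h. PPRC1, a coactivator of the PGC-1 family, was the one that rose (0.97 and 0.84). NRF1, a transcription factor of respiratory genes, had fold changes of -0.46 with Sal (adjusted p = 0.00221), -0.41 with Das (adjusted p = 0.0112) and -0.36 with S + D (adjusted p = 0.0116), and GABPA and ESRRA were not called. PPARGC1A had at most 8 counts in a library. With Das at 72 h, these 6 groups had at most 1 member higher and 5 lower each.

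Some counts also fell on nuclear pseudogenes that are copies of mitochondrial genes, of which 390 are listed. Their sum was between 163.8 and 294.8 CPM in the control libraries at 72 h, 256.5 to 453.1 with Sal, 211.3 to 644.6 with Das and 314.8 to 504.4 with S + D. Reads of these copies and of the mitochondrial transcripts they resemble cannot be told apart here, and so these sums are no measure of the mitochondrial subunits. Of 13 copies tested at 72 h, 1 was higher after Sal, 2 after Das and 5 after S + D, and 0 were lower, where 26.3%, 10.5% and 27% of all genes were higher, with MTND2P28 at 1.88, 1.58 and 2.02.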

How the data were processed

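RNA was sequenced from 32 libraries of MDA-MB-468 cells, with 4 biological replicates in each of 8 conditions. Per the labels and the study's methods, libraries were made with TruSeq kits and read as single ends on a HiSeq4000. The submitters' processing notes name bcl2fastq 2.19, STAR 2.5.2, Cufflinks 2.1.1, DESeq2 and the build GRCh37. The table the authors deposited holds raw counts per gene, and the counting program, annotation and use of strand are not given in the sources used here. The spread between replicates sets the p-values.

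Genes were named by identifier from GENCODE v44lift37, which matched 46537 of 48804 genes, 19391 of them protein-coding. Of 103 protein-coding genes that meet the rule, the 90 nuclear ones are listed and the others, of the mitochondrial genome, were not analysed here. Some single genes are counted but not reported here by name. Promoter windows came from RefSeq (GRCh38.p14), and the first window was used for the 9 members with several.

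Counts were fitted with edgeR 4.0.16 in R 4.3.3 (TMM, filterByExpr with a minimum count of 10, quasi-likelihood test, Benjamini-Hochberg adjustment over all genes tested, threshold 0.01). The 24 h and 72 h libraries were fitted apart, and all 32 together for differences between times. Alternatives were RLE size factors, no filter, DESeq2 1.42.0, a replicate block, the numbered libraries only, a term for unnumbered libraries, each library left out in turn and, added after the data were seen, leaving out replicate 1 of S + D at 72 h as well. The rule for named genes took the called member with the largest change per complex and treatment, the SDH genes and CYC1, isoform and read-through genes, members that were not tested, and in each other list the largest rise and fall with 7 regulators. Other called members, and NDUFS1, ATP5F1A and ATP5F1B, were named after their values were seen. The members and lists were chosen with earlier results of these data known.

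At 24 h, same-numbered libraries deviated together. Correlations were 0.16 to 0.36 for replicates 1 to 3 and 0.61 to 0.69 for the unnumbered libraries. The main fits have no term for the replicate number, so their counts and p-values are unpaired. Pairs by number enter only in the alternative fit with a replicate block. Counts were also simulated for Sal against control at 72 h with 16682 genes. Of genes changed by 1 on the log2 scale, edgeR called 33 of 50 made lower and 38 of 50 made higher. It called 3 and 5 of 50 changed by 0.5, and 1 of 16482 unchanged genes. The changed genes were taken only from those above a floor in CPM, and no deviation shared by the short genes of a library was simulated. These rates therefore do not carry over to the members in the real libraries.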

Additional observations from a re-analysis of the deposited data

Results flagged for a closer look

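Of 64 values by condition (the summed members and 7 genes in 8 conditions), 12 had 1 library far from the other libraries of its condition by Dixon's criterion, and in all 12 it was the unnumbered library. Chance gives about 1 in 20 groups when groups are independent. These 64 values come from the same libraries and the sum contains the 7 genes, so the 12 cannot be set against that rate. The summed CPM of the members in the unnumbered library was 9510 in the control at 24 h (8390 to 8531 in the others), 11680 with Sal at 24 h (7763 to 8381), 10950 with Das at 24 h (7647 to 7844), 8988 with S + D at 24 h (7316 to 7427) and 10660 with Sal at 72 h (8851 to 8923). With Sal at 24 h, the unnumbered library held 205.2 CPM of UQCRC2 (158 to 158.3 in the others), 198.2 of COX7A2L (124.5 to 135.4) and 108 of ATP5MC1 (54.04 to 57.72).

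With Das at 24 h it held 93.89 CPM of SDHB (76.44 to 78.37 in the others). With S + D at 24 h it held 66.83 CPM of ATP5MC1 (52.71 to 53.55), 120.7 of ATP5MC2 (90.99 to 93.46) and 141 of ATP5MC3 (128.4 to 129.6). The same direction was measured in other genes with short transcripts, and its part in these values was not tested.

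The response differed between 72 h and 24 h, by edgeR's test of the difference itself, for 7 members with Sal and 9 with S + D. Of all 17227 genes, 8.21% had a higher and 13.7% a lower response to Sal at 72 h. For S + D the shares were 6.15% and 10.1%. Leaving out 1 library at a time gave 3 to 10 members with Sal and 4 to 10 with S + D.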

How the results depend on the processing

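No called value of a named gene turned its direction under the alternatives run. Of the values of named genes, 1843 kept direction and side of the threshold, 67 gained a call and 45 lost one. Counts of called members moved more, and the cause was not tested. With the numbered libraries only, Sal at 24 h lowered 4 members, Das raised 4 and lowered 16, and S + D raised 7 and lowered 38, while at 72 h Sal lowered 15 and Das 3. In the same fit 3 were called in the interaction at 72 h, 1 was higher in the control at 72 h than at 24 h, and the responses differed between times for 19 members after Sal, 1 after Das and 29 after S + D. Over all genes in this fit at 72 h, 29.6% were lower with Sal and 11.5% with Das. The interaction was called higher for 6.62% and lower for 6.24% of all genes, and 7.02% were higher in the control at 72 h. The response at 72 h was higher for 16.9% and lower for 22.4% with Sal. With Das the shares were 0.816% and 2.75%, and with S + D 13.7% and 17.9%. At 24 h, 10.9% of all genes were lower with Sal. With Das 20.6% were higher and 18.7% lower, and with S + D 28.6% and 29.4%. Leaving out replicate 1 of S + D as well gave 17 lower with S + D, 5 lower against Das, 2 called in the interaction and 26 in the response to S + D. Over all genes, 29.1% were lower with S + D and 17.8% against Das, and the interaction was called higher for 5.12% and lower for 4.07%. The response to S + D at 72 h was higher for 13% and lower for 18.4%.

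With the replicate block, Das gave 2 higher and 1 lower and S + D 21 lower at 24 h. Over all genes, 13.4% were higher and 14% lower with Das, and 24.5% were lower with S + D. At 72 h the correlations between same-numbered libraries were -0.037 to 0.18 for replicate 1, 0.13 to 0.28 for replicate 2, -0.044 to 0.27 for replicate 3 and 0.53 to 0.63 for the unnumbered libraries, so not every pair passed 0.1, the limit set for taking numbers as pairs. There the block gave 15 lower for Sal, 3 lower for Das, 28 higher and 5 lower for S + D, 28 higher and 1 lower for S + D against Das, and 3 in the interaction. Over all genes, 31.1% were lower for Sal and 15.4% for Das, and 30.8% were higher and 31.7% lower for S + D. Against Das, 20.2% of all genes were higher and 22.4% lower, and the interaction was called higher for 7.99% and lower for 8.77%. The responses differed for 14 and 27 members with Sal and S + D under the block, and 1 was higher in the control at 72 h. Over all genes, the response at 72 h was higher for 14.2% and lower for 19.5% with Sal. With S + D it was higher for 12.6% and lower for 16.5%, and 5.31% were higher in the control. A term for unnumbered libraries gave 3 higher and 2 lower with Das and 22 lower with S + D at 24 h. Over all genes, 15.2% were higher and 15.8% lower with Das, and 25.6% were lower with S + D. At 72 h this term gave 15 lower for Sal, 3 lower for Das, 28 higher and 5 lower for S + D, 29 higher and 1 lower against Das, 1 lower against Sal, 3 in the interaction, 13 and 27 in the responses to Sal and S + D, and 1 in the control. Over all genes, 31.6% were lower for Sal and 15.5% for Das, and 31.6% were higher and 32.2% lower for S + D. Against Das, 20.8% of all genes were higher and 23% lower, and the interaction was called higher for 8.22% and lower for 9.59%. Against Sal, 4.21% were lower. The response at 72 h was higher for 14.6% and lower for 19.9% with Sal, and for 13% and 17% with S + D. In the control, 5.63% were higher at 72 h.

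DESeq2 called 2 higher with Das at 24 h. At 72 h it called 2 lower with Das, 4 lower with S + D, 2 in the interaction and 1 lower for S + D against Sal. It called 1 in the control between times. Over all genes, DESeq2 called 1516 of 16357 higher with Das at 24 h. At 72 h it called 2079 of 16682 lower with Das and 4852 lower with S + D. The interaction was called higher for 1073 and lower for 1251, and S + D against Sal lower for 565. In the control between times, 561 of 17227 were higher and 298 lower. RLE size factors gave 1 lower with Das at 72 h, where 1602 of all 16682 genes were lower. Without the filter, Das gave 2 higher at 24 h and 1 lower at 72 h, where 953 of 30783 and 1539 of 31010 genes were. In this setting the responses differed for 4 members with Sal and 5 with S + D. Of 33132 genes, the response to Sal was higher for 1076 and lower for 2140. That to S + D was higher for 788 and lower for 1585.

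Leaving out 1 library at a time gave 0 to 3 higher for Sal at 24 h. For Das it gave 0 to 2 in each direction (2 lower without its unnumbered library). For S + D it gave 2 to 3 higher and 7 to 9 lower. Over all 16547 to 16599 genes tested in these fits, 471 to 787 were higher for Sal. For Das 825 to 1260 were higher and 810 to 1162 lower. For S + D 2065 to 2769 were higher and 2212 to 2769 lower. At 72 h, leaving out 1 library gave 13 to 17 higher and 4 to 14 lower for Sal. For Das it gave 1 to 5 higher and 0 to 2 lower. For S + D it gave 15 to 21 higher and 1 to 6 lower. Over all 16844 to 16986 genes tested there, 3936 to 4320 were higher and 3947 to 4554 lower for Sal. For Das 1128 to 2482 were higher and 897 to 2232 lower. For S + D 4031 to 4455 were higher and 4048 to 4492 lower. Leaving out 1 library also gave 0 to 2 members in the interaction and 8 to 17 higher for S + D against Das. It gave 3 to 10 in the response to Sal, 4 to 10 in that to S + D and 0 to 1 in the control. Over all genes, the interaction was called higher for 317 to 1061 and lower for 340 to 1406. Against Das, 1954 to 2755 were higher. Alternatives planned for mitochondrial genes and their ratio to nuclear genes were not run, since 0 such genes are listed.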
